A study of Mus musculus with 10 samples.

Results

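The genes described here are 33 genes of fatty acid and cholesterol synthesis under the sterol regulatory element-binding proteins (SREBPs). They were taken from the gene table by symbol, and all 33 symbols had a row among the 55385 genes. All 33 also passed the filter on low counts, which left 18491 genes. RNA was sequenced from mouse left ventricle in 2 groups of 5 libraries. The HFpEF group, named for heart failure with preserved ejection fraction, were C56Bl6 mice (strain as spelled in the labels) that received a high-fat diet together with the nitric oxide synthase blocker L-NAME over 6 weeks. The Control group were C56Bl6 mice on a standard diet for the same 6 weeks. The diet and the drug came together, so their shares in a difference cannot be told apart. Sex, age and batch are not in the labels. Whether the libraries are separate animals is not stated either, and p-values refer to the spread among libraries, which may be technical.

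SREBPs are transcription factors held in the endoplasmic reticulum as membrane proteins. When sterols are low, the escort protein SCAP carries them to the Golgi, where proteases release the part that enters the nucleus; when sterols are plentiful, the INSIG proteins keep SCAP and its cargo in place. SREBP-1 acts mainly on genes of fatty acid synthesis and SREBP-2 mainly on genes of cholesterol synthesis and uptake. The heart makes little fat of its own, and the malonyl-CoA formed by acetyl-CoA carboxylase also limits the entry of fatty acids into mitochondria.

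Total counts ran from 31286355 to 33604554 in HFpEF libraries and from 31555001 to 46108710 in Control libraries. Mitochondrial transcripts took 36.2% to 38.5% of counts in HFpEF libraries and 33.6% to 37.5% in Control libraries. The tissue label was checked with 6 cardiomyocyte markers, whose summed level was 22474 to 24176 CPM in HFpEF libraries and 23443 to 24987 CPM in Control libraries. The 3 atrial markers summed to at most 1.18 CPM in HFpEF libraries and 1.28 CPM in Control libraries. CPM are the usual depth-scaled counts, with libraries scaled by the trimmed mean of M values (TMM).

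A small group of lipid synthesis genes was lower in HFpEF ventricles, while most of the pathway was not called. Srebf1, Acaca, Fasn and Hsd17b7 fell, none of the 33 genes rose, and 29 were not called (edgeR quasi-likelihood test, Benjamini-Hochberg adjusted p below 0.05 over all genes tested). The 4 that fell were 12.1% of the members, against 2.09% of all genes tested that were called lower; 3.24% of all genes were called higher. DESeq2 and limma voom each called the same 4 members lower and 0 higher. At an unadjusted p below 0.05, 8 members were lower, which was 24.2% of them against 9.91% of all genes, and 1 was higher, which was 3.03% against 10.6%. The changes were small: the median log2 fold change of HFpEF over Control was -0.09 over the members and -0.01 over all genes tested, and 22 members, or 66.7%, lay below 0 against 52.8% of all genes. Srebf1 and Acaca were the members whose 2 groups of libraries did not overlap, which is 6.06% of the members against 2.93% of all genes in that direction. No member lay wholly above Control, against 3.88% of all genes. The members were chosen with earlier results of these data known, so these shares are a description and not independent support. A gene that was not called is not shown to be equal between the groups. In bulk tissue, less RNA per cell and fewer cells of the type that makes it cannot be told apart.

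**Figure D1:**
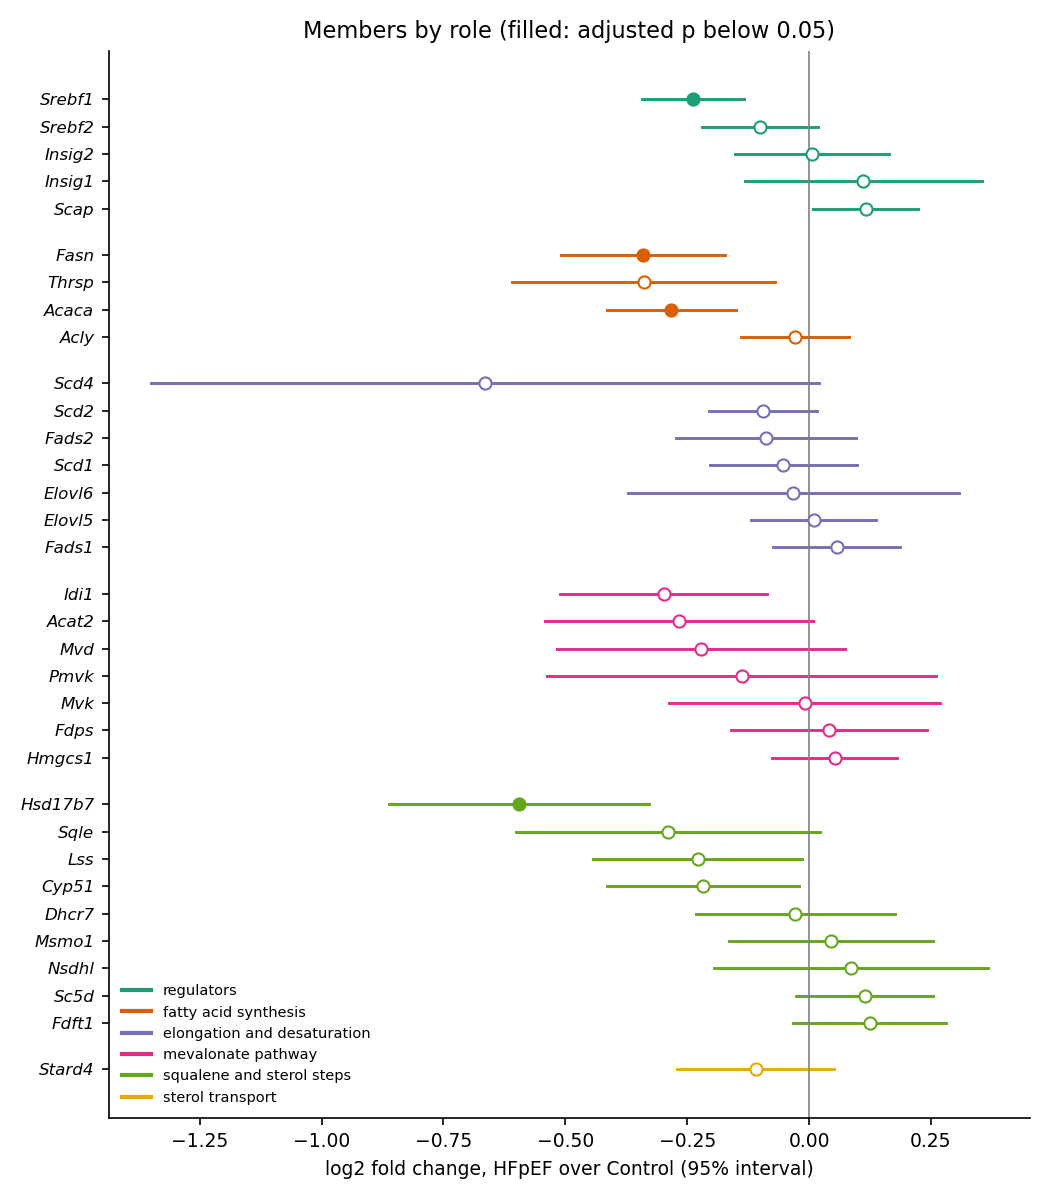
Fold changes of the 33 genes by role. The horizontal axis is the log2 fold change of HFpEF over Control, lines are 95% intervals, filled points have an adjusted p below 0.05 and colours mark roles; the filled points are Srebf1 at -0.24, Acaca at -0.28, Fasn at -0.34 and Hsd17b7 at -0.60.

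Promoter windows are shown for 3 genes that fell and for Hmgcs1, the member whose window held the sterol regulatory element searched for. The windows come from RefSeq (build GRCm38.p6, the assembly also called mm10) and run 5′ to 3′ on the strand of the gene, from 250 bases before to 50 bases after a listed start. Capitals mark CCAAT boxes, the letters read by NF-Y, a known partner of SREBPs, as CCAAT or its reverse complement ATTGG, and in Hmgcs1 also the sterol regulatory element.
Srebf1, chr11:60222532-60222831, minus strand: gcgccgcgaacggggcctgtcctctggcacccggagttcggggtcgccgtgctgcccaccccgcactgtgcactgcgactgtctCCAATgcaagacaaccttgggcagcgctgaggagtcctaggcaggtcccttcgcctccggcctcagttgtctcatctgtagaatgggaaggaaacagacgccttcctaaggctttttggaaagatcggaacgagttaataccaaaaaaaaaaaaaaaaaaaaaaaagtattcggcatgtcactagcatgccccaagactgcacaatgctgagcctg
Fasn, chr11:120824498-120824797, minus strand: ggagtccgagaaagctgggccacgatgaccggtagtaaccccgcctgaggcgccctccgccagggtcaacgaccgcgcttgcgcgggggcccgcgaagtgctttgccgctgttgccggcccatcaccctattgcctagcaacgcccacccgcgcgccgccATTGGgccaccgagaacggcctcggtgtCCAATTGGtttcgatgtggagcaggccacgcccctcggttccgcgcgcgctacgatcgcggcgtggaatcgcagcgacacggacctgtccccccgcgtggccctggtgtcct
Hsd17b7, chr1:169969156-169969455, minus strand: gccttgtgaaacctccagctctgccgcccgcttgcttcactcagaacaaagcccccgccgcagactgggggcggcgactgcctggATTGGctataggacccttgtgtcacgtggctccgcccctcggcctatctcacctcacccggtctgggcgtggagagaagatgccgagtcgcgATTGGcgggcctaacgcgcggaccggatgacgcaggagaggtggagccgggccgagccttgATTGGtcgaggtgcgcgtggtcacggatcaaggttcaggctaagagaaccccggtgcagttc
Hmgcs1, chr13:119690101-119690400, plus strand: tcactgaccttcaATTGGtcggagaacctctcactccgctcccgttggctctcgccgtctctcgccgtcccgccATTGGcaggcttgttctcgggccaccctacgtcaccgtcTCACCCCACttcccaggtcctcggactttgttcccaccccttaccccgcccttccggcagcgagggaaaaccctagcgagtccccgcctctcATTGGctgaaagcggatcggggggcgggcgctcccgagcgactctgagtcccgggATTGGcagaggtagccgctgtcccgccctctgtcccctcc

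The motifs searched, on both strands, were the sterol regulatory element TCACNCCAC, an E-box TCACNTGA that SREBPs can also bind, the CCAAT box, and the GC box GGGCGG read by Sp1. RefSeq windows were matched by symbol for 26 of the 33 genes, with 34 starts. The sterol regulatory element was found in 1 of the 34 windows, that of Hmgcs1, where it begins 137 bases before the start, and in 1.24% of all 32851 windows of this length. The E-box was found in 2 windows, of Insig2 and Thrsp, and in 4.18% of all windows. CCAAT boxes were common: 21 of 34 windows held at least 1, or 61.8%, against 37.4% of all windows. The GC box was in 67.6% of the windows of these genes and 35.7% of all windows. The Srebf1 window shown held 1 CCAAT match, Fasn held 3 CCAAT matches, of which 2 overlap in a run that reads the same on both strands, Hsd17b7 held 3, and Hmgcs1 held 4. The single window of Acaca, which lies inside the gene, held no match of any of the 4 motifs. Srebf1 has 3 listed starts, and the most upstream one is shown. A match of letters is a description and not a binding site, and a window without a match says nothing of the factor.

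Among the regulators, the gene of SREBP-1 fell and the genes of SREBP-2, SCAP and both INSIGs were not called. Srebf1 (ENSMUSG00000020538.15, protein-coding, mm10 chromosome 11, 60199089 to 60222581, minus strand) stood at 20.3, 21.3, 20.9, 19.2 and 20.4 CPM in HFpEF libraries 1 to 5, against 24.8, 23.1, 23.8, 25.4 and 23.3 CPM in Control libraries 1 to 5. Every HFpEF library lay below every Control library. Its mean was 20.4 ± 0.813 CPM in HFpEF and 24.1 ± 0.960 CPM in Control (SD, n = 5), and its log2 fold change was -0.24 ± 0.05 (SE; 95% interval -0.34 to -0.13; edgeR adjusted p = 0.0114), a level 15.2% lower. The table gives 1 value for the gene and does not separate its transcripts, which encode the forms SREBP-1a and SREBP-1c. Exons of Rai1 on the opposite strand overlap 1.93% of its exonic bases.

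Srebf2, which encodes SREBP-2, had 18.97, 17.02, 16.29, 18.12 and 18.20 CPM in HFpEF, against 19.67, 19.52, 18.32, 17.84 and 19.68 CPM in Control. The groups overlapped, and the log2 fold change was -0.10 ± 0.06 (SE; 95% interval -0.22 to 0.02; edgeR adjusted p = 0.332). The log2 ratio of Srebf1 to Srebf2 counts within a library asks whether the 2 genes moved apart; it averaged 0.20 ± 0.13 in HFpEF and 0.34 ± 0.11 in Control (SD, n = 5). The difference of -0.14 was not beyond the spread between libraries (exact permutation test over all 252 splits, two-sided p = 0.111; Benjamini-Hochberg adjusted over 3 ratios, p = 0.333; smallest p possible 0.00794). A fall of Srebf1 apart from Srebf2 was therefore not shown, although the first passed its test and the second did not.

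Scap, the escort, had 22.8, 26.6, 24.8, 25.5 and 23.9 CPM in HFpEF, against 22.6, 22.3, 22.6, 23.7 and 22.7 CPM in Control. All HFpEF libraries but HFpEF 1 lay above every Control library. Its log2 fold change was 0.12 ± 0.05 (SE; 95% interval 0.01 to 0.22; unadjusted p = 0.0360, edgeR adjusted p = 0.207), so it was not called. An opposite-strand gene model, 5830462I19Rik, overlaps 13.2% of its exonic bases, and the strandedness of the counting is not known here.

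Insig1, itself a target of SREBPs in many tissues, spread widely within both groups. It ranged from 7.45 to 11.3 CPM in HFpEF libraries and from 7.93 to 10.8 CPM in Control libraries (log2 fold change 0.11, 95% interval -0.13 to 0.35). Insig2 ranged from 14.0 to 18.1 CPM in HFpEF and from 15.1 to 16.8 CPM in Control, with a log2 fold change of 0.01 (95% interval -0.15 to 0.16). The log2 ratio of Insig1 to Insig2 counts averaged -0.71 ± 0.19 in HFpEF and -0.82 ± 0.21 in Control (SD, n = 5; difference 0.11, exact permutation test, two-sided p = 0.437, adjusted over 3 ratios p = 0.627).

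Of the 4 genes of fatty acid synthesis, 2 fell and none rose, and the median log2 fold change was -0.31. Acaca, acetyl-CoA carboxylase, makes malonyl-CoA. This gene (ENSMUSG00000020532.18, chromosome 11, 84129672 to 84401651, plus strand) had 17.7, 19.8, 20.2, 21.5 and 20.6 CPM in HFpEF, against 23.3, 23.0, 27.1, 23.4 and 24.6 CPM in Control. No HFpEF library reached the lowest Control library. Means were 20.0 ± 1.41 CPM in HFpEF and 24.3 ± 1.69 CPM in Control (SD, n = 5), a log2 fold change of -0.28 ± 0.06 (SE; 95% interval -0.42 to -0.15; edgeR adjusted p = 0.0155).

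Fasn, fatty acid synthase, builds palmitate from malonyl-CoA. The gene (ENSMUSG00000025153.9, chromosome 11, 120805846 to 120824547, minus strand) had 20.13, 26.02, 22.00, 21.65 and 22.37 CPM in HFpEF, against 29.28, 24.82, 30.58, 31.75 and 25.69 CPM in Control. HFpEF 2 lay above Control 2 and Control 5, and the other 4 HFpEF libraries lay below all Control libraries. Means were 22.4 ± 2.18 CPM in HFpEF and 28.4 ± 3.04 CPM in Control (SD, n = 5), a log2 fold change of -0.34 ± 0.08 (SE; 95% interval -0.51 to -0.17; edgeR adjusted p = 0.0215). The call of Fasn held in 5 of 10 fits with 1 library removed; taking away HFpEF 3, HFpEF 4, Control 1, Control 3 or Control 4 ended it (adjusted p up to 0.0621), with log2 fold changes from -0.40 to -0.29. Exons of Acaca and Fasn overlap no other annotated gene.

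Thrsp, known as Spot 14 and tied to the control of lipogenesis, was less certain. It had 7.36, 9.60, 9.77, 10.5 and 12.0 CPM in HFpEF, against 10.2, 13.4, 11.8, 11.5 and 15.1 CPM in Control. HFpEF 1 was the lowest library and Control 5 the highest, and the groups overlapped. Its log2 fold change of -0.34 ± 0.12 equalled that of Fasn to 2 decimals, with a larger SE, and it was not called (SE; 95% interval -0.61 to -0.07; unadjusted p = 0.0175, edgeR adjusted p = 0.141).

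Acly, ATP citrate lyase, supplies cytosolic acetyl-CoA to both branches. It had 24.2, 24.1, 24.3, 26.2 and 24.0 CPM in HFpEF, against 27.8, 24.3, 24.5, 24.3 and 24.4 CPM in Control. All libraries but HFpEF 4 and Control 1 lay between 24.0 and 24.5 CPM, and those 2 were higher. Its log2 fold change was -0.03 ± 0.05 (SE; 95% interval -0.14 to 0.08; edgeR adjusted p = 0.807), an interval that does not reach the values of Acaca or Fasn. Whether Acly differed from those genes was not tested.

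**Figure D2:**
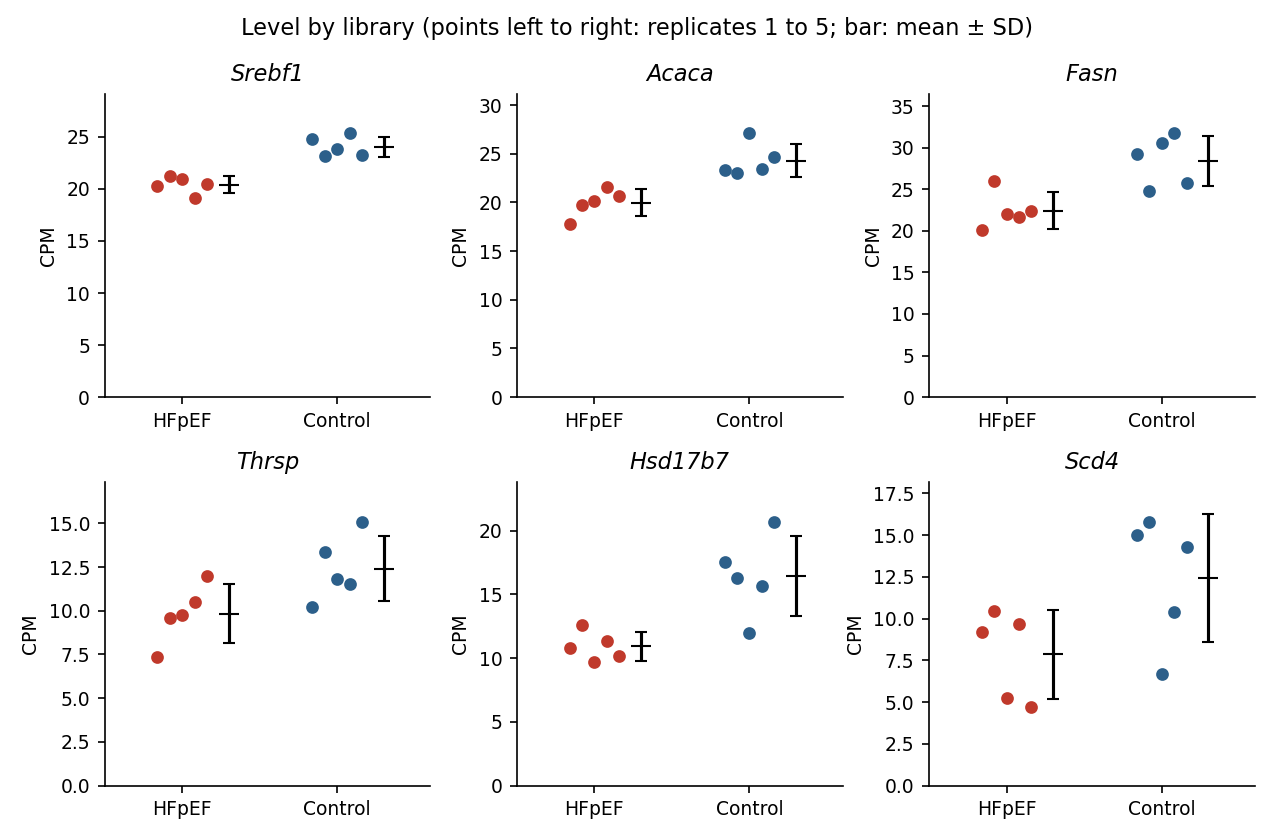
Levels of 6 members in each library. The vertical axes are CPM from 0, points are libraries 1 to 5 from left to right in each group and bars are the mean ± SD; the groups do not overlap for Srebf1 and Acaca, and they overlap for Fasn, Thrsp, Hsd17b7 and Scd4.

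None of the 7 elongases and desaturases was called by edgeR, DESeq2 or limma voom, 0 had an unadjusted p below 0.05, and the median log2 fold change was -0.05. Scd4, the stearoyl-CoA desaturase that mice express mainly in heart, had the lowest fitted value of all 33 members and the widest spread. It had 9.20, 10.44, 5.26, 9.69 and 4.73 CPM in HFpEF, against 14.99, 15.82, 6.69, 10.39 and 14.32 CPM in Control. HFpEF 3, HFpEF 5 and Control 3 were low, and Control 3 lay below 3 of the HFpEF libraries. The coefficient of variation was 33.9% in HFpEF and 30.8% in Control, against medians of 7.42% and 10.7% over all members. Its log2 fold change was -0.66 ± 0.30 (SE; 95% interval -1.35 to 0.02; edgeR adjusted p = 0.258).

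The other stearoyl-CoA desaturases among the members, which place a first double bond in saturated chains, had narrow intervals. Scd1 had 15.7, 15.9, 17.2, 16.2 and 13.7 CPM in HFpEF, against 14.3, 17.5, 15.8, 16.4 and 17.3 CPM in Control (log2 fold change -0.05, 95% interval -0.20 to 0.10). Scd2 ranged from 16.4 to 17.6 CPM in HFpEF and from 17.3 to 19.5 CPM in Control (log2 fold change -0.09, 95% interval -0.20 to 0.02; unadjusted p = 0.0880). The log2 ratio of Scd1 to Scd2 counts averaged -0.11 ± 0.15 in HFpEF and -0.15 ± 0.11 in Control (SD, n = 5; difference 0.04, exact permutation test, two-sided p = 0.627, adjusted over 3 ratios p = 0.627). The 3 Scd genes among the members are nearby paralogs on chromosome 19, so reads shared between them could be divided in the authors' counting. Scd3, a further paralog that is not a member, had at most 14 counts in a library.

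Elovl5, an elongase of polyunsaturated fatty acids, had the highest CPM of its role. It had 24.9, 28.8, 26.2, 25.9 and 28.3 CPM in HFpEF, against 25.5, 27.0, 28.3, 24.0 and 28.5 CPM in Control. The groups overlapped over nearly their whole range, with a log2 fold change of 0.01 ± 0.06 (SE; 95% interval -0.12 to 0.14; edgeR adjusted p = 0.952). Fads1 (0.06, 95% interval -0.07 to 0.19) and Fads2 (-0.09, 95% interval -0.27 to 0.10), the desaturases of polyunsaturated fatty acids, were not called. Elovl6, which extends palmitate to stearate, was low, with 27 to 61 counts a library, and its log2 fold change of -0.03 has an interval from -0.37 to 0.31.

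None of the 7 genes of the mevalonate pathway was called by edgeR, DESeq2 or limma voom, and the median log2 fold change was -0.14. Idi1, the isomerase that interconverts the isoprene building blocks, was the member with an unadjusted p below 0.05. It had 3.82, 4.80, 4.06, 4.00 and 4.08 CPM in HFpEF, against 6.13, 5.33, 4.59, 4.76 and 4.76 CPM in Control. All HFpEF libraries but HFpEF 2 lay below the lowest Control library. Its log2 fold change was -0.30 ± 0.10 (SE; 95% interval -0.51 to -0.09; unadjusted p = 0.00914, edgeR adjusted p = 0.0986), and it remained uncalled in all 19 other fits. The opposite-strand gene model Gm48574 overlaps 9.22% of its exonic bases.

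Hmgcs1, the cytosolic synthase that forms HMG-CoA, had the highest CPM of these 7 genes and is the gene whose promoter window held the sterol regulatory element. It had 15.74, 18.04, 18.62, 18.05 and 17.40 CPM in HFpEF, against 17.46, 17.00, 15.40, 16.76 and 18.01 CPM in Control. The groups overlapped over most of their range, and the log2 fold change was 0.05 ± 0.06 (SE; 95% interval -0.08 to 0.18; edgeR adjusted p = 0.680). An opposite-strand gene model, Gm48342, overlaps 12.1% of the exonic bases of Hmgcs1. Acat2, the cytosolic thiolase of the first step, had 1.57 to 2.34 CPM in HFpEF and 2.17 to 2.80 CPM in Control (log2 fold change -0.27, 95% interval -0.54 to 0.01). The kinases Mvk (-0.01) and Pmvk (-0.14), the decarboxylase Mvd (-0.22) and the farnesyl diphosphate synthase Fdps (0.04) were not called. Pmvk rests on 27 to 68 counts a library, and 26.7% of the exonic bases of Fdps are shared with the gene model Gm43738 on the same strand.

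Of 9 genes of squalene and sterol synthesis, 1 fell, 0 rose and 8 were not called, and the median log2 fold change was -0.03. Hsd17b7 encodes the keto-reductase that acts in the removal of the methyl groups of lanosterol, and its product also reduces steroid hormones in other tissues. The gene (ENSMUSG00000026675.12, chromosome 1, 169949535 to 169969241, minus strand) had 10.8, 12.6, 9.70, 11.3 and 10.2 CPM in HFpEF, against 17.6, 16.3, 12.0, 15.7 and 20.7 CPM in Control. Control 3 was low and fell below HFpEF 2, and the other 4 Control libraries lay above all HFpEF libraries. Means were 10.9 ± 1.13 CPM in HFpEF and 16.4 ± 3.17 CPM in Control (SD, n = 5). The log2 fold change of -0.60 ± 0.12, a level 33.8% lower, was the furthest from 0 among the called members (SE; 95% interval -0.86 to -0.33; edgeR adjusted p = 0.0151). The call ended when no filter on low counts was used (adjusted p = 0.0516), and its exons overlap no other annotated gene.

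Other genes of sterol synthesis were not called. Msmo1 (0.04, 95% interval -0.16 to 0.25) and Nsdhl (0.09, 95% interval -0.19 to 0.37), which act in the same demethylation, had intervals that lie above that of Hsd17b7; the difference between genes was not tested. Cyp51, the lanosterol demethylase, had 4.73, 5.08, 5.00, 5.26 and 5.41 CPM in HFpEF, against 6.34, 5.81, 6.38, 6.44 and 4.76 CPM in Control. Control 5 lay among the HFpEF libraries and the other 4 Control libraries lay above them. The Cyp51 log2 fold change was -0.22 ± 0.09 (SE; unadjusted p = 0.0326, edgeR adjusted p = 0.197), and it was called when Control 5 was left out (-0.29, adjusted p = 0.0479). Lss, which closes squalene epoxide to lanosterol, ranged from 3.23 to 3.80 CPM in HFpEF and from 3.32 to 4.45 CPM in Control (log2 fold change -0.23, unadjusted p = 0.0380, edgeR adjusted p = 0.212). Sqle, the squalene epoxidase, ranged from 1.09 to 1.33 CPM in HFpEF and from 1.22 to 1.69 CPM in Control (log2 fold change -0.29, 95% interval -0.60 to 0.02), on 35 to 64 counts.

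Fdft1, squalene synthase, had 17.3, 15.3, 16.7, 18.0 and 14.0 CPM in HFpEF, against 14.9, 15.2, 13.6, 16.4 and 14.3 CPM in Control (log2 fold change 0.12 ± 0.07, SE; 95% interval -0.03 to 0.28; edgeR adjusted p = 0.365). The groups overlapped, and exons of the opposite-strand gene Ctsb overlap 18.3% of its exonic bases, so part of its count could belong to Ctsb. The desaturase Sc5d (0.11, 95% interval -0.03 to 0.25) and the last reductase Dhcr7 (-0.03, 95% interval -0.23 to 0.18) were not called. Stard4, a carrier that moves cholesterol between membranes, ranged from 7.32 to 8.33 CPM in HFpEF and from 7.29 to 9.08 CPM in Control (log2 fold change -0.11, 95% interval -0.27 to 0.05; edgeR adjusted p = 0.449).

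**Figure D3:**
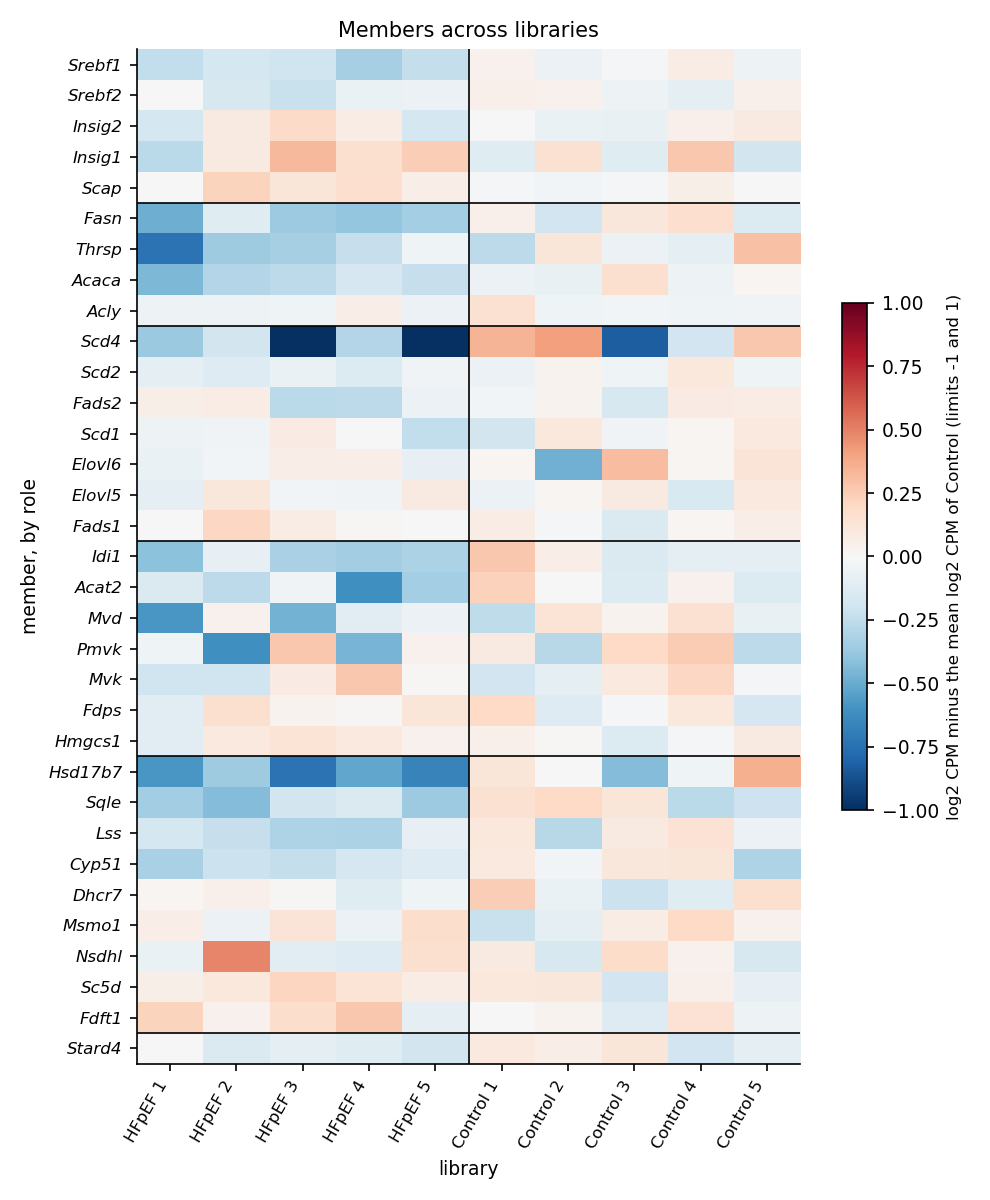
All 33 members in each library. Rows are members by role, columns are libraries and colour is log2 CPM minus the mean log2 CPM of the Control libraries, with limits at -1 and 1; Scd4 is darkest in HFpEF 3 and HFpEF 5 and also low in Control 3, and HFpEF 1 is the lowest HFpEF library for 13 members.

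Single libraries had a part in the spread. HFpEF 1 was the lowest library of its group for 13 of the 33 members, among them Fasn, Thrsp and Acaca, and HFpEF 2 was the highest for 13. Among Control libraries, Control 3 was the lowest for 11 members and Control 4 the highest for 13. Srebf1, Acaca and Hsd17b7 each passed the test whichever single library was removed. Without Control 4 and Control 5 together, the deepest libraries, the same 4 members were called lower.

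Levels between genes were compared as CPM per kilobase of exonic length, and ranks use the mean over all 10 libraries. This length joins all annotated exons of a gene, so it can exceed that of 1 transcript and lower the value. Elovl5 was highest, at 7.62 in HFpEF and 7.57 in Control, followed by Thrsp (4.49 in HFpEF and 5.67 in Control), Acly (4.65 and 4.75) and Insig2 (4.59 and 4.57). The libraries of Thrsp, Acly and Insig2 overlapped, so these genes cannot be ranked among themselves. Srebf1 ranked 5th, at 3.62 in HFpEF and 4.27 in Control, and Srebf2 ranked 16th, at 2.47 in HFpEF and 2.65 in Control. In HFpEF alone, Fdft1 (3.84) and Hmgcs1 (3.83) stood above Srebf1. Acaca, with an exonic length of 17074 bases, ranked 21st (1.17 in HFpEF and 1.42 in Control). The lowest were Lss, Sqle and Elovl6, with Elovl6 at 0.172 in HFpEF and 0.176 in Control. The place of Lss depends on its exonic length of 10787 bases. By mean CPM over all libraries, Lss (3.75) stood above Mvk (1.94).

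**Figure D4:**
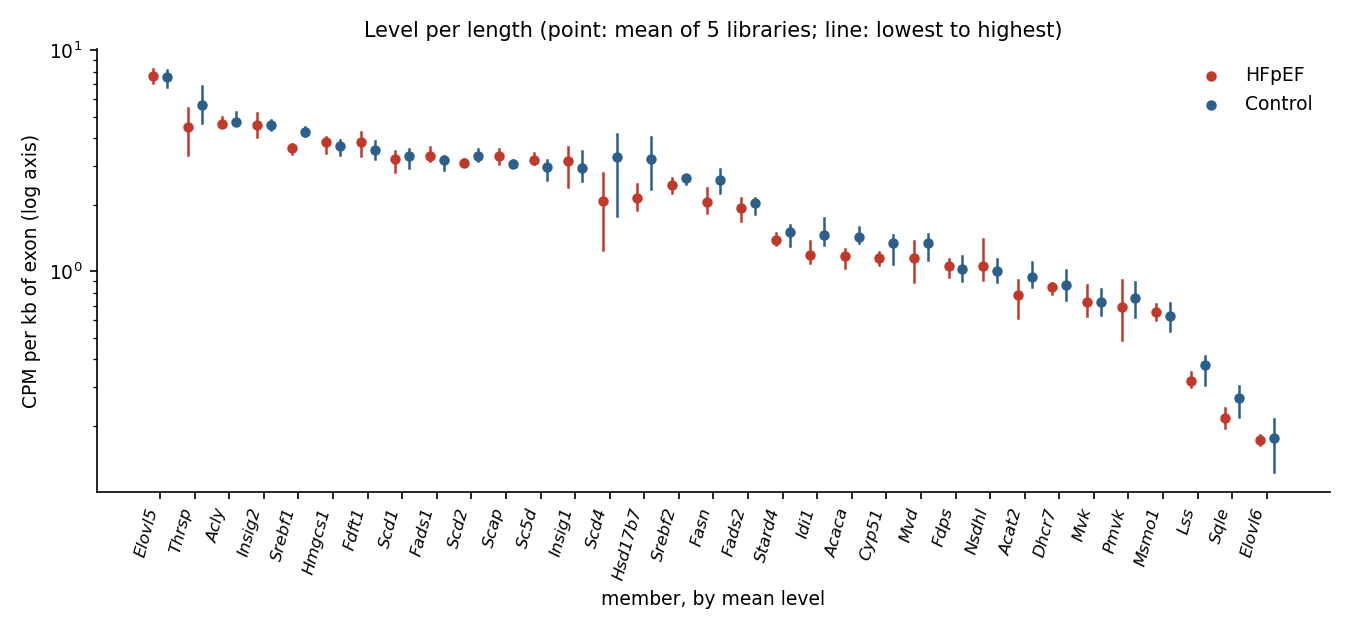
Level of each member per length. The vertical log axis is CPM per kilobase of exon, points are means of 5 libraries and lines run from the lowest to the highest library; Elovl5 is highest at 7.62 in HFpEF and 7.57 in Control, and Elovl6 lowest at 0.172 and 0.176.

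Genes around the pathway were read from lists. For comparison, 3.24% of all genes tested were called higher and 2.09% lower. At an unadjusted p below 0.05, 10.6% of all genes were higher and 9.91% lower. Of 13 genes that process SREBPs or mark the pathway's proteins for degradation, edgeR, DESeq2 and limma voom called 0 in either direction, while 11 lay above 0 with a median log2 fold change of 0.08. Of this list, 15.4% lay below 0, against 52.8% of all genes tested. At an unadjusted p below 0.05, 6 were higher, or 46.2% of the list, and 0 lower. The site proteases that cleave SREBPs in the Golgi were among them: Mbtps1 (0.10 ± 0.05, edgeR adjusted p = 0.235) and Mbtps2 (0.18 ± 0.07, edgeR adjusted p = 0.152). Of 18 further genes of lipogenesis tested, 1 rose, 1 fell and 16 were not called (median -0.06). Mid1ip1, a paralog of Thrsp that promotes the polymerisation of acetyl-CoA carboxylase, fell, with 44.9, 49.4, 52.3, 52.3 and 48.3 CPM in HFpEF, against 64.3, 65.0, 56.8, 65.2 and 69.4 CPM in Control. The groups did not overlap (log2 fold change -0.38 ± 0.06, SE; edgeR adjusted p = 0.00178).

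Me1, the malic enzyme that supplies NADPH in the cytosol, rose, with 90.5 ± 4.31 CPM in HFpEF and 69.1 ± 9.32 CPM in Control (SD, n = 5; log2 fold change 0.39 ± 0.08, SE; edgeR adjusted p = 0.0119). Mlxipl, which encodes the carbohydrate response factor ChREBP, missed the threshold (-0.31 ± 0.10, edgeR adjusted p = 0.0835), although its groups did not overlap; DESeq2 called it lower. Acacb, the carboxylase isoform of muscle mitochondria, stood at 387 ± 11.2 CPM in HFpEF and 362 ± 8.0 CPM in Control (SD, n = 5; log2 fold change 0.10 ± 0.04, SE; edgeR adjusted p = 0.207), and DESeq2 called it higher; its groups did not overlap. Its estimate and that of Acaca had opposite signs. The difference between them was not tested.

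Of 9 genes of the liver X receptors and sterol export, 1 rose, 2 fell and 6 were not called (median -0.09); 1 of the 2 that fell is counted but not reported by name here. Lpcat3, which inserts polyunsaturated chains into phospholipids, rose, with a log2 fold change of 0.40 ± 0.07 (26.4 ± 1.99 CPM in HFpEF and 20.1 ± 2.16 CPM in Control, SD, n = 5; edgeR adjusted p = 0.00630). Abca1, the cholesterol exporter, fell, at 80.0 ± 8.55 CPM in HFpEF and 101 ± 12.4 CPM in Control (SD, n = 5; log2 fold change -0.34 ± 0.09, SE; edgeR adjusted p = 0.0427). Of the fits with 1 library removed, its call held in 2, those without Control 1 or HFpEF 3, and the others reached adjusted p values up to 0.110. Of 11 other genes of sterol synthesis and uptake tested, 1 rose, 0 fell and 10 were not called; at an unadjusted p below 0.05, 2 were lower, and DESeq2 and limma voom also called 0 lower. The riser was Npc1, which exports cholesterol from lysosomes (0.18 ± 0.05, edgeR adjusted p = 0.0388), with 65.7 ± 3.08 CPM in HFpEF and 57.8 ± 2.63 CPM in Control (SD, n = 5). Its call held in 3 of the 10 fits with 1 library removed, those without HFpEF 2, Control 2 or Control 4, with adjusted p values up to 0.0933.

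Fat cells express many of these genes at high levels. The markers of white fat cells were close to absent in these libraries. The 7 white adipocyte markers summed to 0.324 to 0.841 CPM in HFpEF libraries and 0.384 to 1.30 CPM in Control libraries, none passed the filter, and Adipoq had at most 8 counts in a library. Cfd, the marker with the highest Control mean, had at most 13 counts. It averaged 0.031 CPM in HFpEF and 0.225 CPM in Control, and every HFpEF library lay lower. Plin1 went the other way, at 0.183 CPM in HFpEF and 0.083 CPM in Control, with overlapping groups and at most 12 counts. Neither gene was tested. The 5 brown fat markers summed to 119 to 159 CPM in HFpEF libraries and 136 to 169 CPM in Control libraries, mostly from Cox7a1, a mitochondrial subunit that heart muscle also expresses. Ucp1, the defining gene of brown fat, had 0 counts in all 10 libraries. Cidea, a lipid droplet protein also on the brown fat list, rose, at 12.0 ± 1.03 CPM in HFpEF and 7.62 ± 1.53 CPM in Control (SD, n = 5; log2 fold change 0.64 ± 0.12, edgeR adjusted p = 0.00796). Macrophage markers, 5 of 5 below 0 with 0 called by edgeR and limma voom and 2 by DESeq2, summed to 59.5 to 74.0 CPM in HFpEF and 69.8 to 104 CPM in Control. Of all genes tested, 52.8% lay below 0. At an unadjusted p below 0.05, 3 of the macrophage markers were lower, or 60%, against 9.91% of all genes. Of 5 endothelial markers, Emcn fell (-0.27 ± 0.07, edgeR adjusted p = 0.0447; called with 1 library removed in 2 of 10 fits, those without HFpEF 1 or Control 4), and the list summed to 605 to 694 CPM in HFpEF and 654 to 781 CPM in Control. Tnnt2 fell among 6 cardiomyocyte markers (-0.22 ± 0.05, edgeR adjusted p = 0.0185; the call ended without HFpEF 2, HFpEF 4 or Control 1, with adjusted p up to 0.0639). Ryr2, the calcium release channel, was on the same list with a log2 fold change of 0.12 ± 0.05 (edgeR adjusted p = 0.181), and DESeq2 called it higher. Markers of fibroblasts, smooth muscle and pericytes, Schwann cells and red blood cells, 5 tested of each, had 0 calls by edgeR and limma voom and 1 by DESeq2 (Lum, higher). At an unadjusted p below 0.05, 2, 1, 2 and 0 of them were higher and 0 lower, against 10.6% higher and 9.91% lower of all genes. The most expressed marker of each tested list was not called, with log2 fold changes of -0.10 for Cox7a1 (brown fat), -0.04 for Myh6 (cardiomyocytes), -0.11 for Myl4 (atrial cells), -0.13 for Cdh5 (endothelium), 0.09 for Dcn (fibroblasts), -0.24 for Mrc1 (macrophages), 0.10 for Rgs5 (pericytes), -0.15 for Mal (Schwann cells) and 0.23 for Hba-a2 (red blood cells). Mrc1 was called lower in 1 of 10 fits with 1 library removed, that without Control 4 (edgeR adjusted p = 0.0482). The part of white or brown fat cells, macrophages, endothelial cells, cardiomyocytes or any other cell type in the lower members was not tested.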

How the data were processed

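The deposited table holds values in the unit expected counts for 55385 genes and 92 ERCC sequences, which had 0 counts and were left out. Per the submitters' processing notes, Bowtie2 2.1.0, RSEM 1.2.15 and build mm10 were used, with no role given. Per the labels, total RNA was depleted of ribosomal RNA. The values are whole, so rounding changed none. Annotation release and strand are not given in the sources used here; coordinates, exonic lengths and overlaps came from GENCODE M21 (mm10), which matched 55144 genes.

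Genes were filtered with filterByExpr (minimum count 10) and tested in R 4.3.3 with edgeR 4.0.16: TMM scaling, a robust quasi-likelihood fit on the 2 groups alone, and Benjamini-Hochberg adjusted p below 0.05 over 18491 genes. Alternatives used DESeq2 1.42.0 and limma 3.58.1. Each SE is the absolute log2 fold change divided by the root of its F value. Ratios of members used counts plus 0.5 and exact permutation tests. The fit was tested on simulated data. Members and lists were chosen with earlier results of these data known. The genes named are called members, per role those with the highest CPM or smallest p or without overlap, called list genes other than 1 that is not reported here, and the most expressed marker of each list; the other members, and several uncalled list genes, were added after their values were seen. Some other list genes are not reported one by one either, though counts include them. One list gene was matched by its older symbol.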

Additional observations from a re-analysis of the deposited data

Results flagged for a closer look

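Each member's level and each of the 3 ratios was examined within each group of 5 libraries for a library far from the others, in 72 sets of 5 values; chance flags about 1 in 20 such sets, and 4 were flagged. Acly stood apart in both groups, at 26.2 CPM in HFpEF 4 and 27.8 CPM in Control 1. Idi1 stood apart in HFpEF 2, at 4.80 CPM. The log2 ratio of Scd1 to Scd2 counts stood apart in HFpEF 5, at -0.36.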

How the results depend on the processing

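The settings tried were RLE or upper quartile scaling, no filter, a mean CPM of at least 1, DESeq2, limma voom, mitochondrial transcripts left out, the replicate block, each library left out and, chosen after seeing the data, Control 4 and Control 5 left out. Members called lower numbered 3 to 5 over the 10 fits without 1 library and 3 or 4 otherwise, and none was called higher in any. All genes called ranged from 554 to 1101 over those 10 fits, lowest without HFpEF 3. Without Control 1 there were 630 and without HFpEF 4 there were 633, against 985. Of 627 values of members under other settings, 591 kept their direction and side of the threshold, and 26, over 8 members near 0, changed sign. With upper quartile scaling Insig2 was -0.0079 and Elovl5 -0.0039. With limma voom Insig2 was -0.0047. Without Control 4 and Control 5, Elovl5 was -0.0037, Elovl6 0.0095, Mvk 0.063 and the atrial marker Myl4 0.076. Over the fits without 1 library, values ran from -0.043 to 0.050 for Insig2, -0.052 to 0.0095 for Acly, -0.021 to 0.043 for Elovl5, -0.12 to 0.041 for Elovl6, -0.082 to 0.055 for Mvk, -0.0057 to 0.11 for Msmo1, -0.034 to 0.14 for Nsdhl, -0.077 to 0.033 for Dhcr7 and -0.22 to 0.0075 for Myl4. The cause was not tested. Same-numbered libraries did not vary together (correlations -0.11 to 0.06). With the replicate block, 3 members were called, Hsd17b7 and Acaca with Thrsp (adjusted p = 0.0268), while Srebf1 (log2 fold change -0.24, adjusted p = 0.0509) and Fasn (-0.34, adjusted p = 0.0601) were not, and all calls numbered 744. The ratio of Srebf1 to Srebf2 with the replicate block had an exact sign-flip p of 0.25 and an adjusted p of 0.688. Calls also ended for Hsd17b7, Abca1 and the called list gene not named here with no filter, Npc1 with upper quartile scaling, no filter, the replicate block or without Control 4 and Control 5, Abca1 without those libraries, Tnnt2 with the replicate block and Emcn with limma voom. The macrophage marker Mrc1, not called in the main fit, was called lower with the replicate block (edgeR adjusted p = 0.0484) and without Control 4 (edgeR adjusted p = 0.0482). Nus1 was called higher without HFpEF 1 (edgeR adjusted p = 0.00993). Members with under about 70 counts a library, such as Sqle, Pmvk and Elovl6, have wide intervals.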

Other observations

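Genes of the isoprenoid branches, which use mevalonate products for coenzyme Q, dolichol and protein prenylation, counted 0 higher and 0 lower of 9 by edgeR and limma voom, with a median log2 fold change of 0.01. At an unadjusted p below 0.05, 3 were higher, or 33.3%, and 0 lower, against 10.6% higher and 9.91% lower of all genes. DESeq2 called 1 higher, Nus1, a subunit of the dolichol synthase (0.19 ± 0.06 and adjusted p = 0.0792 by edgeR). Some relatives of the members were barely expressed. Scd3 had at most 14 counts in a library, Elovl7 at most 18, Elovl3 at most 1 and Soat2 at most 4.

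Scd4 and Hsd17b7 were both lowest of their Control group in Control 3, at 6.69 and 12.0 CPM. Among HFpEF libraries, HFpEF 3 and HFpEF 5 held the 2 lowest values of both genes. These libraries were picked out after the values had been seen, and with 5 libraries a group no correlation was computed.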
